A study of Homo sapiens with 12 samples.

Results

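Homologous recombination and the Fanconi pathway repair broken and crosslinked DNA. This account describes 35 genes of both pathways, taken by name from a table of 34643 gene symbols, and all 35 passed the filter on low counts that left 15419 genes for testing. The libraries came from LNCaP, a human prostate cancer line that responds to androgens, carrying a lentiviral pLKO.1-puro vector that drives from the U6 promoter either a short hairpin RNA against TMEFF2 (shTMEFF2) or a scrambled one (shScramble). Both lines were kept for 24 h in medium with 10% charcoal-stripped serum, which is depleted of androgens, and then given 10 nM dihydrotestosterone (DHT+) or ethanol as vehicle (DHT-) for another 24 h. This gave 4 groups of 3 libraries: shScramble DHT-, shScramble DHT+, shTMEFF2 DHT- and shTMEFF2 DHT+. The hairpin had been present for 17 days by the design text and about 2.5 weeks by the protocol. Within each group the 3 repeats had their own treatment and extraction and go back to 2 transductions, but the sources used here do not say which repeat came from which, nor which TMEFF2 hairpin was sequenced. The p-values therefore measure the spread between these repeats of 1 cell line.

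In homologous recombination the ends of a double-strand break are cut back to single strands, the BRCA proteins prepare these strands, and a prepared strand invades the sister DNA to copy it. In the Fanconi pathway a core complex with the ligase FANCL and the E2 enzyme UBE2T attaches ubiquitin to the FANCD2 and FANCI pair at a DNA crosslink, after which nucleases cut the crosslink and recombination restores the fork. Both pathways work mainly in S and G2 phase, and several of their genes are E2F targets that are transcribed as cells enter S phase. BRCA1, BRCA2, PALB2 and others are also known as prostate cancer susceptibility or drug-response genes.

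Levels are given as CPM (counts scaled to a common library total), computed from the estimated counts with TMM-normalized library sizes. The libraries held 19450866 to 22612046 estimated counts (median 21194622), with TMM factors of 0.955 to 1.04. A gene was called where edgeR's quasi-likelihood test gave an adjusted p up to 0.05 together with a change of 1.5-fold or more (Benjamini-Hochberg over 15419 genes). The word "rose" or "fell" is used for called genes. TMEFF2 mRNA was lower on average in the libraries labelled shTMEFF2, but not past the adjusted p. TMEFF2 measured 77.8, 73.8 and 103 CPM in shScramble DHT- and 68.6, 39.3 and 81.7 CPM in shTMEFF2 DHT-, a log2 difference of −0.43 (SE 0.25, adjusted p = 0.50). With DHT it measured 173, 117 and 169 CPM in shScramble and 142.1, 90.1 and 114 CPM in shTMEFF2, a log2 difference of −0.41 (SE 0.25, adjusted p = 0.30). The groups overlapped at both DHT levels, and TMEFF2 was lower in the shTMEFF2 library in 6 of 6 pairs of the same replicate number. Whether these numbers pair libraries across the lines is not settled. Same-numbered libraries of a line deviated together, so the 6 pairs are not independent of each other. With the replicate number as a block the differences were −0.47 (SE 0.14, adjusted p = 0.12) without DHT and −0.40 (SE 0.14, adjusted p = 0.069) with DHT. The summed level of 9 prostate luminal markers was 6833 to 7095 CPM in shScramble DHT-, 14351 to 16002 in shScramble DHT+, 4360 to 4950 in shTMEFF2 DHT- and 5338 to 6823 in shTMEFF2 DHT+. The sum over 12 markers of immune, endothelial, stromal and basal cells was 37.8 to 66.1 CPM in every library, and the basal keratin KRT5 was at 0 in all. Of the 7 of these 12 that could be tested, 2 rose and 4 fell with DHT in shScramble and 0 rose and 1 fell in shTMEFF2, and their part in the results was not tested.

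With DHT the fitted level was higher for 31 of the 35 recombination and Fanconi genes in shScramble and for 33 in shTMEFF2, and more of them passed the limits in shTMEFF2. In shScramble 5 of the 35 rose with DHT and 1 fell, whereas 5.45% of all tested genes were called higher and 6.45% lower. In shTMEFF2 24 of the 35 rose and 0 fell by edgeR (0 lower also by DESeq2 and limma-voom), against 3.28% and 1.6% of all tested genes. At an unadjusted p under 0.05 in edgeR 0 of the 35 were lower there, against 2010 of the 15419 tested genes. The median log2 fold change of the 35 genes was 0.40 in shScramble and 0.82 (1.77-fold) in shTMEFF2, and that of all tested genes was −0.01 and −0.02. Without DHT 0 of the 35 were called between the lines, and with DHT 2 were called higher in shTMEFF2. The 35 genes together held 0.105% to 0.119% of the counts of a library in shScramble DHT-, 0.113% to 0.130% in shScramble DHT+, 0.110% to 0.125% in shTMEFF2 DHT- and 0.173% to 0.192% in shTMEFF2 DHT+. RNA from bulk cells cannot tell apart a larger share of cells in S or G2 phase and more RNA per cell. The mean of a gene was highest of the 4 groups in shTMEFF2 DHT+ for 31 of the 35 (19.5% of all tested genes), and for 17 of them each shTMEFF2 DHT+ library lay above all 9 other libraries (3.16% of all tested genes).

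**Figure D1:**
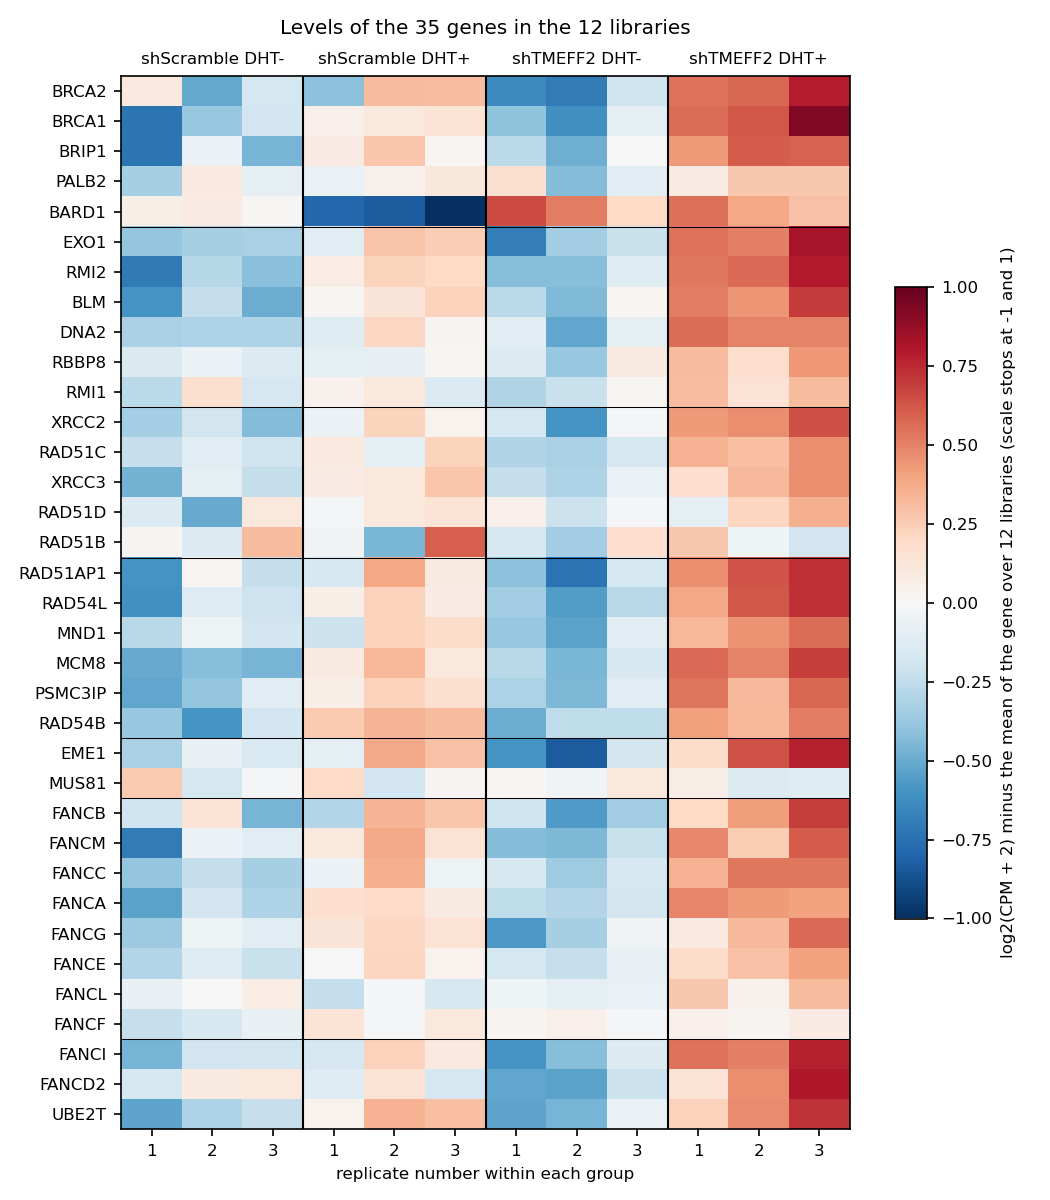
Levels of the 35 genes (rows, in blocks by role) in the 12 libraries (columns, in blocks by group), as log2(CPM + 2) minus the mean of the gene over the 12 libraries, with the color scale ending at −1 and 1. The 3 shTMEFF2 DHT+ libraries are the highest for most rows, and BARD1 has its lowest values in shScramble DHT+.

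By the adjusted p alone, 19 of the 35 were higher with DHT in shScramble (14.4% of all tested genes) and 28 in shTMEFF2 (7.84% of all tested genes). The DHT+ libraries all lay above the DHT- libraries for 21 of the 35 in shScramble (21.3% of all tested genes) and for 29 in shTMEFF2 (15.6%). All 5 genes that rose in shScramble (BLM, RMI2, RAD54B, MCM8 and UBE2T) also rose in shTMEFF2, and the other 19 were called in shTMEFF2 alone. Of these 19, the difference between the responses was past the adjusted p for FANCD2 by edgeR with no block. DESeq2 added BRCA2, RAD51C and FANCI, and edgeR with the replicate number as a block within each line added BRCA1, EXO1, RAD51AP1, EME1 and FANCI. The rises in shTMEFF2 ran from 1.59-fold for RAD51C to 2.31-fold for BRCA2, and 9 genes at least doubled by their fitted fold (BRCA1, BRCA2, EXO1, RMI2, RAD51AP1, RAD54L, MND1, EME1 and FANCB). In shScramble the rises ran from 1.53-fold for UBE2T to 1.69-fold for RMI2. The count of 5 in shScramble was 3 without DHT- replicate 1 and 8 without DHT- replicate 2 or 3, while the count of 24 in shTMEFF2 was 22 to 27 with any 1 library left out.

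**Figure D2:**
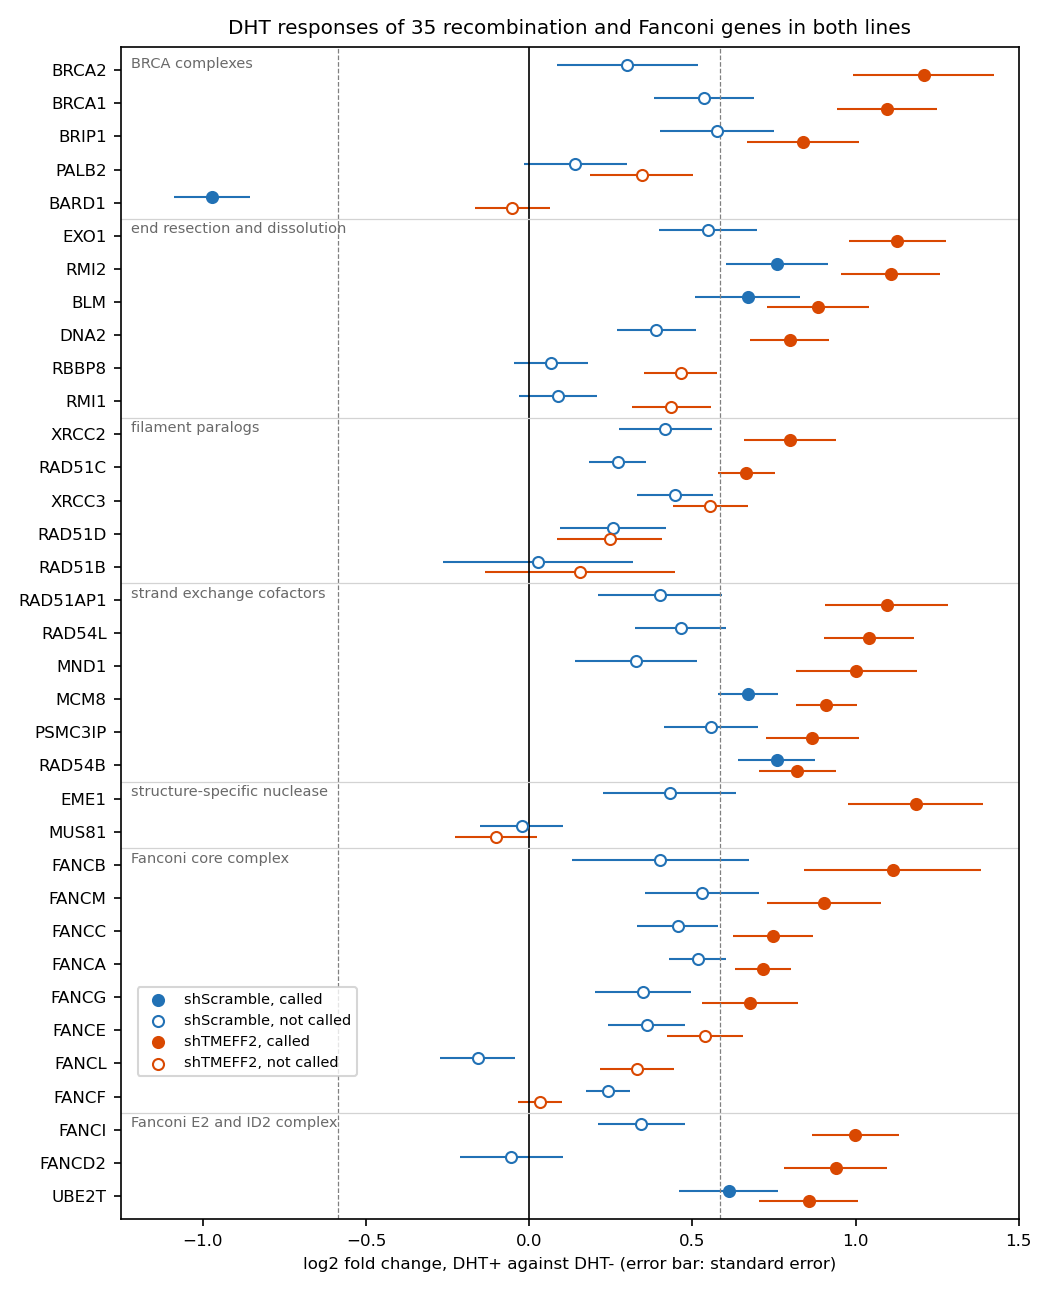
Log2 fold change of each of the 35 genes with DHT (horizontal axis) in shScramble (blue) and shTMEFF2 (orange), with the standard error as bar, filled points for called genes and dashed lines at 1.5-fold in each direction. The shTMEFF2 point lies to the right of the shScramble point for 32 of the 35, and BARD1 is the only gene called lower.

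The genes around BRCA1 held both the largest rise, that of BRCA2, and the single fall. BRCA1, the ubiquitin ligase that directs break ends to recombination, measured 44.6, 38.2 and 55.6 CPM in shTMEFF2 DHT- and 88.5, 92.3 and 115 CPM in shTMEFF2 DHT+, a rise of 2.14-fold (log2 1.10, SE 0.15, adjusted p = 0.0011). In shScramble BRCA1 went from 35.1, 45.4 and 51.8 to 61.8, 64.1 and 65.7 CPM, a log2 difference of 0.54 that passed the adjusted p (0.022) but not 1.5-fold. Neither pair of groups overlapped. BARD1, the obligate RING partner that stabilizes BRCA1, fell with DHT in shScramble. It measured 232, 234 and 224 CPM in shScramble DHT- and 128, 124 and 99.8 CPM in shScramble DHT+, or 0.51 times the vehicle level (log2 −0.97, SE 0.12, adjusted p = 6.2e-05), and the groups did not overlap. In shTMEFF2 BARD1 measured 349, 317 and 255 CPM without and 326, 291 and 272 CPM with DHT, overlapping groups that differed by −0.05 on the log2 scale (adjusted p = 0.82). Every shTMEFF2 library of BARD1, with or without DHT, lay above every shScramble library. Per kilobase of the canonical transcript, the mean level of BARD1 was 6.75 times that of BRCA1 in shScramble DHT- and 2.37 times in shScramble DHT+. In shTMEFF2 it was 8.62 times that of BRCA1 without and 3.89 times with DHT. These ratios depend on the transcript taken for each gene.

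BRCA2, which acts on the single-stranded DNA of a resected break, had the largest rise of the 35. It measured 17.7, 16.9 and 24.6 CPM in shTMEFF2 DHT- and 42.6, 43.5 and 50.6 CPM in shTMEFF2 DHT+ (log2 1.21, SE 0.22, adjusted p = 0.0040). In shScramble BRCA2 measured 30.8, 19.5 and 25.1 CPM without and 20.99, 36.03 and 35.9 CPM with DHT, and these groups overlapped (log2 0.30, adjusted p = 0.33). BRIP1, the helicase bound by the BRCT repeats of BRCA1, rose in shTMEFF2 from 19.95, 16.7 and 24.3 to 33.4, 38.02 and 37.6 CPM (log2 0.84, SE 0.17, adjusted p = 0.0079). In shScramble BRIP1 lay just under the fold limit, at 13.8, 23.2 and 16.99 CPM without and 25.7, 29.9 and 24.7 CPM with DHT (log2 0.58, SE 0.17, adjusted p = 0.028), and was past it with a replicate block within each line (log2 0.60, SE 0.13, adjusted p = 0.0087). PALB2, the bridge between BRCA1 and BRCA2, was not called in any comparison. It measured 22.98, 14.5 and 18.8 CPM in shTMEFF2 DHT- and 21.6, 24.9 and 24.9 CPM in shTMEFF2 DHT+, and 15.7, 21.9 and 18.9 against 19.3, 20.99 and 22.2 CPM in shScramble.

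**Figure D3:**
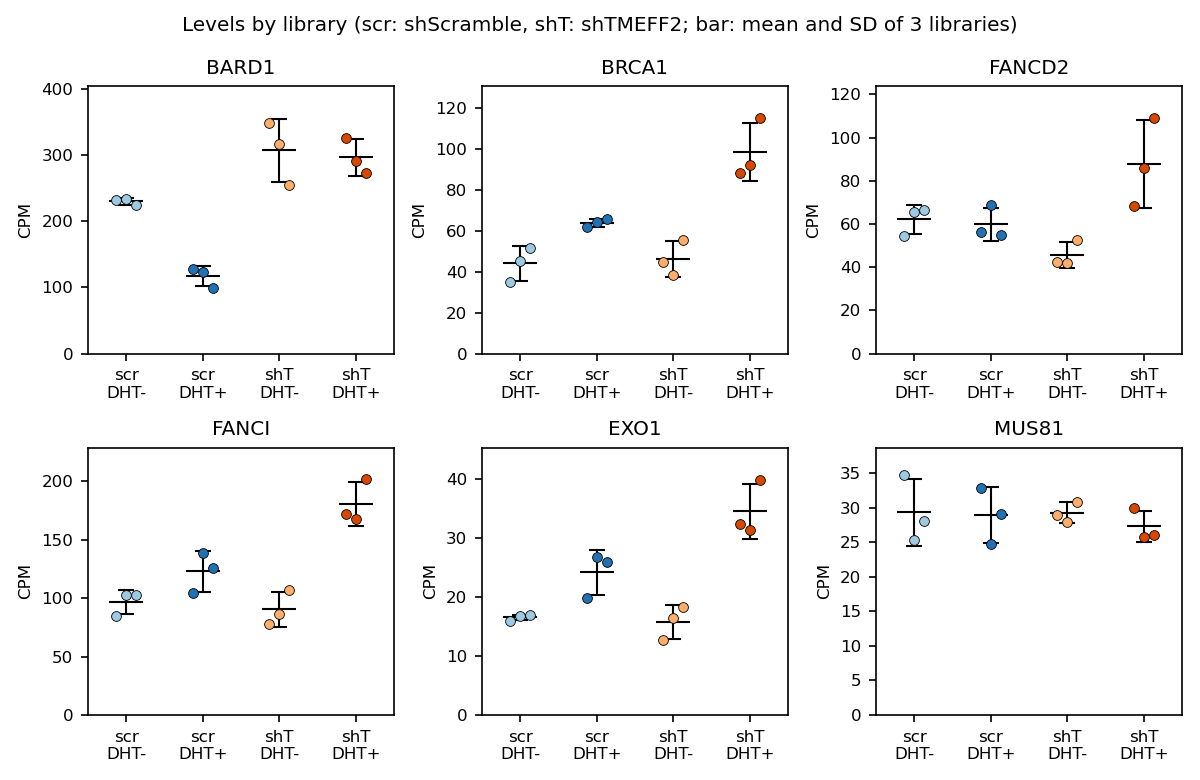
CPM of 6 genes in each library (points) with the mean and SD of the 3 libraries of each group (bars), on axes that start at 0. BRCA1, FANCD2, FANCI and EXO1 are highest in shTMEFF2 DHT+, BARD1 is lowest in shScramble DHT+, and the groups of MUS81 overlap.

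Among the 6 genes of end resection and of the BLM dissolvasome, 4 rose with DHT in shTMEFF2 and the other 2 passed the adjusted p alone. EXO1, an exonuclease that lengthens the single-stranded end, measured 12.6, 16.5 and 18.2 CPM in shTMEFF2 DHT- and 32.3, 31.3 and 39.8 CPM in shTMEFF2 DHT+ (log2 1.13, SE 0.15, adjusted p = 0.00089). In shScramble EXO1 measured 15.97, 16.7 and 16.8 CPM without and 19.8, 26.8 and 25.9 CPM with DHT (log2 0.55, adjusted p = 0.016), which is under 1.5-fold. The libraries did not overlap in either line. DNA2, the nuclease and helicase of the parallel resection route, rose in shTMEFF2 from 23.5, 17.2 and 23.8 to 38.6, 36.7 and 36.8 CPM (log2 0.80, SE 0.12, adjusted p = 0.0016). DNA2 in shScramble measured 19.96, 20.2 and 20.2 CPM without and 23.4, 29.8 and 26.01 CPM with DHT (log2 0.39, adjusted p = 0.031). RBBP8, which encodes CtIP and starts resection with the MRN nuclease, was under 1.5-fold in both lines, at 33.6, 27.9 and 39.6 CPM without and 46.7, 41.99 and 50.8 CPM with DHT in shTMEFF2 (log2 0.46, adjusted p = 0.017).

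BLM and RMI2 rose in both lines. BLM, the helicase that with TOP3A, RMI1 and RMI2 dissolves double Holliday junctions, measured 7.38, 10.1 and 8.08 CPM in shScramble DHT- and 12.3, 13.6 and 14.7 CPM in shScramble DHT+ (log2 0.67, SE 0.16, adjusted p = 0.0080). In shTMEFF2 BLM measured 9.76, 8.45 and 12.4 CPM without and 18.3, 17.3 and 21.05 CPM with DHT (log2 0.88, SE 0.16, adjusted p = 0.0038). Without shScramble DHT- replicate 1 the shScramble difference of BLM was 0.58 on the log2 scale and under 1.5-fold, and with either of the 2 columns of a library alone it missed the adjusted p. RMI2, a subunit of the same complex, rose in shScramble from 6.02, 8.73 and 7.83 to 11.8, 13.3 and 13.1 CPM (log2 0.76, SE 0.16, adjusted p = 0.0030). In shTMEFF2 RMI2 rose from 7.74, 7.75 and 10.03 to 16.9, 17.4 and 20.7 CPM (log2 1.11, SE 0.15, adjusted p = 0.00099). The groups of BLM and of RMI2 did not overlap in either line. RMI1, the remaining subunit of this set, passed the adjusted p alone in shTMEFF2, at 51.6, 54.8 and 64.98 CPM without and 80.1, 71.2 and 80.4 CPM with DHT (log2 0.44, adjusted p = 0.032).

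Of the 5 paralogs RAD51B, RAD51C, RAD51D, XRCC2 and XRCC3, which work in complexes with each other, 2 rose with DHT in shTMEFF2 and 0 in shScramble by edgeR, DESeq2 or limma-voom, where 3 passed the adjusted p of edgeR alone. RAD51C, a member of both paralog complexes, measured 35.7, 35.01 and 39.03 CPM in shTMEFF2 DHT- and 57.04, 55.1 and 61.9 CPM in shTMEFF2 DHT+ (log2 0.67, SE 0.09, adjusted p = 0.00087). In shScramble RAD51C measured 37.6, 41.3 and 38.4 CPM without and 47.6, 41.7 and 52.2 CPM with DHT (log2 0.27, adjusted p = 0.036). XRCC2 of the complex with RAD51B, RAD51C and RAD51D rose in shTMEFF2 from 27.4, 19.9 and 30.6 to 42.3, 43.6 and 49.6 CPM (log2 0.80, SE 0.14, adjusted p = 0.0038). XRCC2 in shScramble measured 24.03, 27.1 and 22.4 CPM without and 29.7, 36.6 and 31.8 CPM with DHT (log2 0.42, adjusted p = 0.047). The groups of RAD51C and XRCC2 did not overlap in either line. XRCC3, the partner of RAD51C in the other complex, was just under 1.5-fold in shTMEFF2, at 28.3, 26.9 and 32.03 CPM without and 38.1, 42.7 and 47.1 CPM with DHT (log2 0.55, adjusted p = 0.0083). RAD51D and RAD51B did not pass the test in any comparison, and the DHT+ and DHT- libraries of both overlapped in both lines. RAD51B had the widest error of the 35, with 5.47 to 13.5 CPM over the 12 libraries and an SE of 0.29 for each response.

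All 6 cofactors of strand exchange rose with DHT in shTMEFF2, and RAD54B and MCM8 also rose in shScramble. RAD51AP1, which helps DNA strands pair, measured 24.5, 19.2 and 29.2 CPM in shTMEFF2 DHT- and 46.6, 52.6 and 56.5 CPM in shTMEFF2 DHT+ (log2 1.10, SE 0.19, adjusted p = 0.0033). In shScramble RAD51AP1 measured 21.2, 33.7 and 27.8 CPM without and 29.5, 43.98 and 35.6 CPM with DHT, and the groups overlapped (log2 0.40, adjusted p = 0.14). RAD54L, the DNA translocase that drives branch migration, rose in shTMEFF2 from 21.8, 18.5 and 23.02 to 37.7, 44.6 and 48.1 CPM (log2 1.04, SE 0.14, adjusted p = 0.00089). RAD54L in shScramble measured 17.9, 25.7 and 24.2 CPM without and 29.7, 33.6 and 30.1 CPM with DHT (log2 0.46, adjusted p = 0.026). Its relative RAD54B rose in both lines. It measured 14.7, 12.5 and 17.03 CPM in shScramble DHT- and 24.1, 25.6 and 25.2 CPM in shScramble DHT+ (log2 0.76, SE 0.12, adjusted p = 0.00045). In shTMEFF2 RAD54B measured 13.4, 16.3 and 16.2 CPM without and 26.9, 25.4 and 28.97 CPM with DHT (log2 0.82, SE 0.12, adjusted p = 0.0012). The difference between the responses of RAD54B was 0.06 on the log2 scale with an SE of 0.17, and none of its DHT+ libraries overlapped the DHT- libraries.

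MCM8, a helicase that with MCM9 acts in recombination, had the smallest adjusted p of the 35 in shTMEFF2. It measured 43.7, 38.4 and 47.6 CPM without and 80.05, 76.1 and 87.6 CPM with DHT there (log2 0.91, SE 0.09, adjusted p = 0.00021). MCM8 in shScramble measured 37.1, 39.3 and 38.03 CPM without and 56.97, 67.6 and 57.5 CPM with DHT (log2 0.67, SE 0.09, adjusted p = 0.00019). No library of the DHT+ groups overlapped a DHT- library of its line. PSMC3IP and MND1 encode the HOP2 and MND1 pair that stimulates strand exchange, best known from meiosis. PSMC3IP rose in shTMEFF2 from 11.3, 10.1 and 13.4 to 22.1, 18.8 and 22.7 CPM (log2 0.87, SE 0.14, adjusted p = 0.0026), and in shScramble it measured 9.55, 10.6 and 13.4 CPM without and 15.3, 17.5 and 16.6 CPM with DHT (log2 0.56, adjusted p = 0.012). MND1 rose in shTMEFF2 from 4.86, 4.16 and 6.27 to 9.26, 10.2 and 11.2 CPM (log2 1.00, SE 0.19, adjusted p = 0.0046), and in shScramble its groups overlapped. Exons of MND1 overlap another annotated gene on the same strand.

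Of the 2 subunits of the nuclease that cuts branched DNA, EME1 rose with DHT in shTMEFF2 and MUS81 was not called in any comparison. EME1, the regulatory subunit, measured 11.4, 9.38 and 15.8 CPM in shTMEFF2 DHT- and 21.02, 29.4 and 32.6 CPM in shTMEFF2 DHT+ (log2 1.18, SE 0.21, adjusted p = 0.0035). In shScramble EME1 measured 14.2, 17.2 and 16.2 CPM without and 16.96, 24.3 and 22.9 CPM with DHT, with overlapping groups (log2 0.43, adjusted p = 0.14). MUS81, the catalytic subunit, was at 29.04, 27.9 and 30.9 CPM in shTMEFF2 DHT- and 29.95, 25.8 and 26.1 CPM in shTMEFF2 DHT+, and at 34.7, 25.3 and 28.1 and 32.9, 24.8 and 29.2 CPM in shScramble. Its 4 groups overlapped, and its 2 log2 responses were −0.02 (SE 0.13) in shScramble and −0.10 (SE 0.13) in shTMEFF2. The exons of MUS81 overlap CFL1 and EFEMP2 on the other strand.

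Of the 8 Fanconi core complex genes, 5 rose with DHT in shTMEFF2 and 0 in shScramble by edgeR, DESeq2 or limma-voom. By edgeR 5 were higher in shScramble at the adjusted p alone (14.4% of all tested genes). At an unadjusted p under 0.05 it was 6, against 3044 of the 15419 tested genes. The count of 0 in shScramble was 2 without DHT- replicate 2 (FANCA and FANCM), 1 without DHT- replicate 3 (FANCM), and 1 with the first column (FANCM) or the second column (FANCC) of each library alone. FANCA, a large subunit of the core, measured 31.3, 30.5 and 33.1 CPM in shTMEFF2 DHT- and 53.8, 51.5 and 50.6 CPM in shTMEFF2 DHT+ (log2 0.72, SE 0.09, adjusted p = 0.00055). In shScramble FANCA measured 25.5, 32.9 and 30.1 CPM without and 42.8, 43.3 and 40.3 CPM with DHT (log2 0.52, adjusted p = 0.00083). Both responses of FANCA had small errors and lay on either side of 1.5-fold, and their difference was 0.20 on the log2 scale (SE 0.12). FANCM, the translocase that anchors the core to DNA, rose in shTMEFF2 from 13.3, 13.1 and 15.7 to 26.8, 22.6 and 29.5 CPM (log2 0.90, SE 0.17, adjusted p = 0.0057). FANCM in shScramble measured 10.7, 17.8 and 17.1 CPM without and 20.2, 24.8 and 20.9 CPM with DHT (log2 0.53, adjusted p = 0.040). FANCC, a subunit of the submodule with FANCE and FANCF, rose in shTMEFF2 from 21.3, 18.4 and 21.1 to 31.1, 35.5 and 35.5 CPM (log2 0.75, SE 0.12, adjusted p = 0.0025). Its shScramble libraries measured 17.8, 20.04 and 18.6 CPM without and 23.01, 31.3 and 23.1 CPM with DHT (log2 0.45, adjusted p = 0.016). The DHT+ libraries of FANCA, FANCM and FANCC lay above the DHT- libraries in both lines.

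FANCG, which binds FANCA, rose in shTMEFF2 from 23.4, 27.9 and 34.8 to 38.5, 45.1 and 54.02 CPM (log2 0.68, SE 0.15, adjusted p = 0.011). In shScramble FANCG measured 27.4, 34.4 and 32.8 CPM without and 39.2, 41.5 and 39.8 CPM with DHT (log2 0.35, adjusted p = 0.099). Without shTMEFF2 DHT- replicate 1 or DHT+ replicate 3 the shTMEFF2 response of FANCG was 0.55 on the log2 scale and no longer called. FANCB, a partner of FANCL in the catalytic module and the gene with the fewest counts of the 35, rose in shTMEFF2 from 4.52, 3.05 and 3.90 to 6.62, 8.03 and 10.1 CPM (log2 1.11, SE 0.27, adjusted p = 0.019). Without DHT- replicate 2 or DHT+ replicate 3 the FANCB response missed the adjusted p (0.081 and 0.085). FANCE passed the adjusted p alone in shTMEFF2, at 8.94, 8.50 and 9.70 CPM without and 12.04, 13.1 and 14.3 CPM with DHT. FANCL, the ubiquitin ligase itself, did not pass for either response, with 11.5, 10.9 and 11.2 CPM without and 14.8, 12.3 and 15.3 CPM with DHT in shTMEFF2 and 11.2, 11.8 and 12.6 against 9.74, 11.8 and 10.4 CPM in shScramble. FANCF, the adaptor for FANCM, had the larger response in shScramble by its values, a difference not past the adjusted p (−0.21, SE 0.10, adjusted p = 0.28). It measured 33.7, 35.3 and 37.8 CPM in shScramble DHT- and 44.1, 39.3 and 42.9 CPM in shScramble DHT+ (log2 0.24, adjusted p = 0.020), and 40.7, 41.4 and 39.4 CPM without and 41.3, 40.7 and 42.3 CPM with DHT in shTMEFF2, where the groups overlapped.

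The E2 enzyme and its 2 substrates all rose with DHT in shTMEFF2. UBE2T, the E2 that FANCL uses, measured 34.8, 40.8 and 43.2 CPM in shScramble DHT- and 52.4, 65.6 and 63.5 CPM in shScramble DHT+ (log2 0.61, SE 0.15, adjusted p = 0.010). In shTMEFF2 UBE2T measured 34.9, 36.6 and 48.8 CPM without and 60.4, 71.6 and 85.8 CPM with DHT (log2 0.86, SE 0.15, adjusted p = 0.0038). The DHT+ libraries of UBE2T lay above the DHT- libraries in both lines. Per kilobase of the canonical transcript, a measure that depends on that choice of transcript, UBE2T was the most abundant of the 35 with DHT. Its mean was 68.9 CPM per kb in shScramble DHT+ and 82.7 in shTMEFF2 DHT+. Its shScramble response was close to 1.5-fold, and without shScramble DHT- replicate 1, DHT+ replicate 2 or DHT+ replicate 3 it was 0.53, 0.55 and 0.58 on the log2 scale and not called.

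FANCI, the clamp partner of FANCD2, measured 77.6, 86.8 and 107 CPM in shTMEFF2 DHT- and 172, 168 and 202 CPM in shTMEFF2 DHT+ (log2 1.00, SE 0.13, adjusted p = 0.00092). In shScramble FANCI measured 84.8, 103 and 103 CPM without and 104, 138 and 126 CPM with DHT (log2 0.34, adjusted p = 0.075). FANCI did not overlap between DHT+ and DHT- in either line. FANCD2, whose monoubiquitination activates the pathway, measured 42.5, 41.96 and 52.8 CPM in shTMEFF2 DHT- and 68.2, 85.8 and 109 CPM in shTMEFF2 DHT+ (log2 0.94, SE 0.16, adjusted p = 0.0030), with no overlap. In shScramble FANCD2 measured 54.5, 65.7 and 66.4 CPM without and 56.2, 68.6 and 54.7 CPM with DHT (log2 −0.06, adjusted p = 0.83), and these libraries were intermixed. FANCD2 lies on chromosome 3 of GRCh38 from 10026370 to 10101932 on the plus strand (44 exons of the canonical transcript). Its exons overlap FANCD2OS on the other strand, and it has partial pseudogene copies.

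Whether the DHT response differed between the 2 lines was tested directly as the difference between the responses. An effect of the loss of TMEFF2, another effect of the hairpin and an effect of transduction cannot be told apart in this design. That difference was past an adjusted p of 0.05 for 2 of the 35 genes, BARD1 and FANCD2, both larger in shTMEFF2, while 1.65% of all tested genes were larger in shTMEFF2 and 3.29% smaller. For BARD1 the difference was 0.92 on the log2 scale (SE 0.16, adjusted p = 0.0066), with a fall in shScramble and overlapping groups in shTMEFF2. For FANCD2 it was 0.99 (SE 0.22, adjusted p = 0.023), with a rise in shTMEFF2 and overlapping groups in shScramble. The other 33 genes did not pass with no block, with FANCI (0.66, SE 0.19, adjusted p = 0.068) and RAD51C (0.39, SE 0.12, adjusted p = 0.096) the nearest by adjusted p. Same-numbered DHT- and DHT+ libraries deviated together within each line, and once blocks by replicate number were fitted per line the count was 8, against 3.87% of all tested genes larger in shTMEFF2. The 6 genes added were FANCI (0.67, SE 0.09, adjusted p = 0.0023), RAD51AP1 (0.70, SE 0.15, adjusted p = 0.021), BRCA1 (0.55, SE 0.13, adjusted p = 0.037), RBBP8 (0.41, SE 0.10, adjusted p = 0.039), EXO1 (0.60, SE 0.15, adjusted p = 0.044) and EME1 (0.77, SE 0.20, adjusted p = 0.046). With no block an unadjusted p under 0.05 was reached by 14 genes with a larger response in shTMEFF2 and by 1, FANCF, with a smaller one. Of all 15419 tested genes 1243 were larger and 1461 smaller at this limit. The median difference of the 35 genes was 0.35 on the log2 scale, against 0.01 for all tested genes, and it was above 0 for 32 of 35. The BARD1 difference was past the limit with every library left out in turn. That of FANCD2 was lost (adjusted p 0.052 to 0.063) without shScramble DHT- replicate 2 or 3, shScramble DHT+ replicate 1 or 3, or shTMEFF2 DHT- replicate 1 or 2. Without shTMEFF2 DHT- replicate 3 the count was 4, with RBBP8 and FANCI added.

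Without DHT 0 of the 35 genes were called between the lines by edgeR, DESeq2 or limma-voom, against 0.298% of all tested genes higher and 0.272% lower in shTMEFF2. An unadjusted p under 0.05 was reached by BARD1 and FANCF, which were higher in shTMEFF2, and by FANCD2, which was lower. Of all 15419 tested genes 1076 were higher and 1004 lower at this limit. The log2 differences were 0.42 for BARD1 (SE 0.12, adjusted p = 0.11), 0.19 for FANCF (SE 0.07, adjusted p = 0.24) and −0.44 for FANCD2 (SE 0.16, adjusted p = 0.23). These are also the 3 genes whose libraries did not overlap between the lines without DHT, where 9.35% of all tested genes lay higher and 9.18% lower in this way. The median over the 35 was −0.01, with 17 genes above and 18 below 0.

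With DHT the median was 0.40 and 32 of 35 genes were above 0. BARD1 was 2.53-fold higher in shTMEFF2 DHT+ than in shScramble DHT+ (log2 1.34, SE 0.12, adjusted p = 1.3e-05) and BRCA1 was 1.54-fold higher (log2 0.63, SE 0.15, adjusted p = 0.014), from the library values given above. These 2 calls compare with 3.03% of all tested genes higher and 3.74% lower. By the adjusted p alone 15 of the 35 were higher in shTMEFF2 DHT+ (6.93% of all tested genes), and for 20 all 3 shTMEFF2 DHT+ libraries lay above the 3 shScramble DHT+ libraries (15.5%). The nearest under the fold limit were FANCI (1.47-fold, adjusted p = 0.013) and FANCD2 (1.47-fold, adjusted p = 0.031). BRCA1 was no longer called without shScramble DHT+ replicate 1 (adjusted p = 0.051) or shTMEFF2 DHT+ replicate 3 (adjusted p = 0.054), which left 1 call, nor with the first column of each library alone (adjusted p = 0.073). The count was 7 without shScramble DHT+ replicate 2 and 4 without shTMEFF2 DHT+ replicate 1 or 2. This comparison, the 2 responses and their difference use the same 12 libraries, so they are not independent of each other.

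The promoters of the 35 genes were searched because several recombination genes are known E2F targets and 24 of the 35 rose in shTMEFF2. The RefSeq promoter table (build GRCh38.p14, 250 bases before to 50 after the start) held 31 of the 35, and not DNA2, FANCI, RAD54B or RMI2. An E2F-type 8-mer (TTTCCCGC, TTTGGCGC, TTTCGCGC or TTTGCCGC on either strand) was found in 9 of the 31 (29.0%), against 6.27% of the 11010 tested genes with a promoter in the table, each gene counted once over all its promoters. Over the 35116 promoters themselves the share was 3.31%. The 9 were EXO1, FANCA, FANCC, FANCD2, MCM8, MND1, PSMC3IP, RMI1 and XRCC2, and 8 of them rose with DHT in shTMEFF2 (median log2 0.87), with RMI1 the exception. Of the 22 without the letters 12 rose (median log2 0.67). The CHR letters TTTGAA were found in 3 of 31 (9.68%, against 13.9% of tested genes and 15.2% of all promoters), the CCAAT box in 15 (48.4%, against 43.1% and 34.6%), and the androgen response element half-site AGAACA in 2, BRCA2 and EXO1 (6.45%, against 13.4% and 14.8%). These are matches of letters in a window, not binding sites. The window from 100 bases before to 30 after the start is shown 5′ to 3′ on the strand of the gene for 3 genes that rose and hold an E2F match, for RMI1, and for BARD1, which has none, with the match in capitals: FANCD2 (chr3:10026337-10026466, plus), EXO1 (chr1:241848104-241848233, plus), MND1 (chr4:153344588-153344717, plus), RMI1 (chr9:83980705-83980834, plus) and BARD1 (chr2:214809654-214809783, minus).
FANCD2: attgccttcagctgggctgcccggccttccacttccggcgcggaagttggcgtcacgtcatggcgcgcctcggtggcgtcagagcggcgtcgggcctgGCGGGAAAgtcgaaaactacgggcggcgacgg
EXO1: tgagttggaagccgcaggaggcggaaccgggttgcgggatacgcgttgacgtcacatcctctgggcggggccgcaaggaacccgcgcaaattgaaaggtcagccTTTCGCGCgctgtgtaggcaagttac
MND1: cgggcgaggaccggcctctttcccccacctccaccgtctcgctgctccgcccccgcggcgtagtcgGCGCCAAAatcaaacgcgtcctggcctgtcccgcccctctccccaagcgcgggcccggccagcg
RMI1: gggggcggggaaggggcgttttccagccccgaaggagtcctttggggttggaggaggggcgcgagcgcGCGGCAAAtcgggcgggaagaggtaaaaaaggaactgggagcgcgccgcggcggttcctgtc
BARD1: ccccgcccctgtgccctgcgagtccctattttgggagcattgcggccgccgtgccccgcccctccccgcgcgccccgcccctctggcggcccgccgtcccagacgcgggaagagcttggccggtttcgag
The 8 letters stand in 1 place in each of the first 4 windows, in either orientation, and in none of the last.

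Fewer of the other genes of both pathways were called. Of 42 other recombination genes, 2 rose with DHT in shScramble and 7 in shTMEFF2, against 5.45% and 3.28% of all tested genes. The count in shScramble was near that share, and the count in shTMEFF2 was above it. The median log2 responses of the 42 were 0.09 and 0.16. Those that rose in shTMEFF2 were CHEK1 and CHEK2, checkpoint kinases, with ATRIP, PARPBP, MMS22L, TONSL and POLQ. TOP3A, the topoisomerase of the BLM complex, rose in shScramble (log2 0.66, SE 0.08, adjusted p = 5.1e-05). FIGNL1, an ATPase that acts in recombination, was the 1 gene of this list with a larger response in shTMEFF2 (difference 0.71, SE 0.14, adjusted p = 0.014), against 1.65% of all tested genes. Of 15 other Fanconi pathway genes, CENPX rose in shScramble, and RFWD3 and FAAP24 rose in shTMEFF2, against the same 5.45% and 3.28%.

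In the other repair pathways few genes were called. Of all tested genes 5.45% were called higher and 6.45% lower with DHT in shScramble, and 3.28% and 1.6% in shTMEFF2. At those shares, 0 or 1 call higher in a list of 17 or 18 genes does not set the list apart. At an unadjusted p under 0.05, 3044 of the 15419 tested genes were higher and 2926 lower in shScramble, and 2178 and 2010 in shTMEFF2. Of 17 genes of non-homologous end joining, which joins ends without a template, 1 rose in shScramble (DCLRE1C) and 0 in shTMEFF2 by edgeR. In shTMEFF2 6 were higher and 1 lower at an unadjusted p under 0.05, and 1 was called higher by DESeq2. DCLRE1C was 1.54-fold higher in shScramble (edgeR adjusted p = 0.039) and 1.57-fold in shTMEFF2 (edgeR adjusted p = 0.052). Its responses differed by 0.03 on the log2 scale (SE 0.29). Of 18 genes of nucleotide excision repair 0 rose in either line by edgeR, DESeq2 or limma-voom, with 4 higher and 4 lower in shScramble and 3 higher and 1 lower in shTMEFF2 at an unadjusted p under 0.05, and DDB2 fell in shScramble (log2 −0.60, SE 0.10, adjusted p = 0.00076). Of 7 mismatch repair genes MSH6 rose in both lines, and PMS2 fell in shScramble (log2 −1.24, SE 0.11, adjusted p = 3.8e-06). The responses of PMS2 and DDB2, like that of BARD1, differed between the lines by the test of the difference (0.78 for both, adjusted p 0.0090 and 0.0072). PMS2 has near-identical pseudogene copies, so its counts are uncertain.

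Markers of proliferation were also higher with DHT in shTMEFF2. The 12 markers, such as MKI67, PCNA, CCNA2 and RRM2, rose in 12 of 12 cases in shTMEFF2 and in 1 of 12, RRM2, in shScramble, with median log2 responses of 0.87 and 0.34. Their summed level was 867 to 1086 CPM in shScramble DHT-, 1074 to 1416 in shScramble DHT+, 823 to 1144 in shTMEFF2 DHT- and 1510 to 1968 in shTMEFF2 DHT+. By the test of the difference 0 of the 12 were past the adjusted p in edgeR or limma-voom and 4 in DESeq2. At an unadjusted p under 0.05 in edgeR 8 were larger in shTMEFF2, against 1243 of the 15419 tested genes. Their median difference was 0.61 on the log2 scale and above 0 for 12 of 12, against 0.35 and 32 of 35 for the repair genes. Between the lines with DHT the medians were 0.50 for the markers and 0.40 for the repair genes. All of these values are with no replicate block. The part of the proliferation markers in the responses of the 35 genes was not tested.

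**Figure D4:**
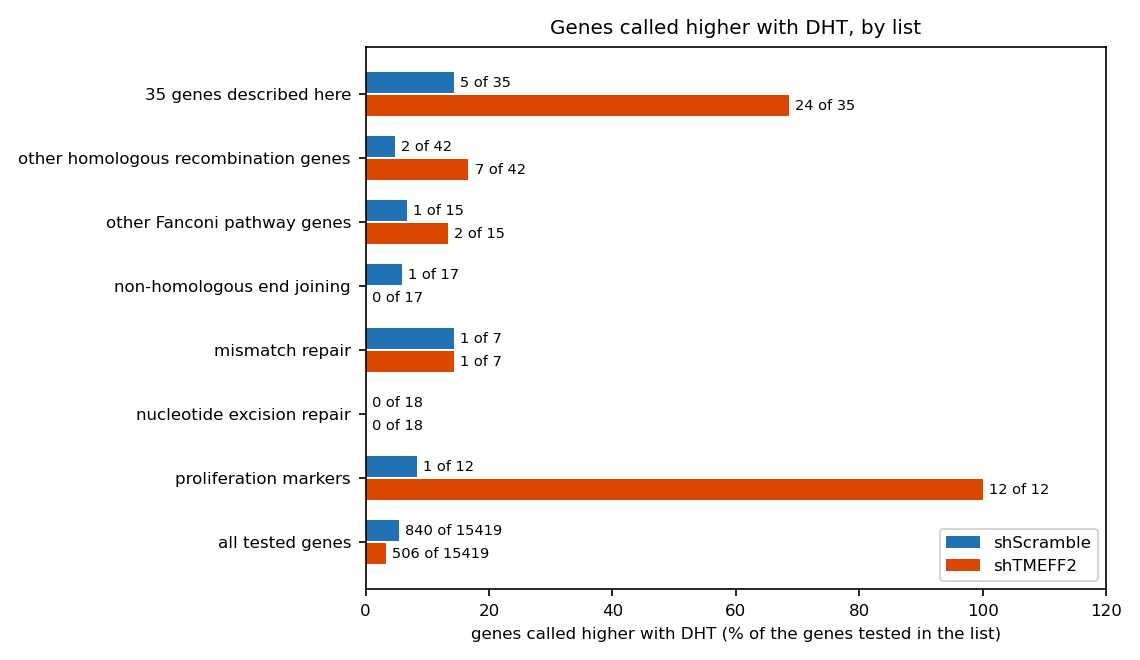
Share of the tested genes of each list that were called higher with DHT (bars, in percent, with the counts beside them) in shScramble (blue) and shTMEFF2 (orange). The 35 genes (24) and the proliferation markers (12 of 12) stand highest in shTMEFF2, and non-homologous end joining and nucleotide excision repair hold 0 calls there. The share of all tested genes called higher in shTMEFF2 was 3.28%.

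Kallisto shares reads between genes with the same sequence. The exons of 24 of the 35 genes overlap another annotated gene, 8 of them on the same strand and 19 on the other, and the values of these genes may hold reads of the neighbor. BARD1, on chromosome 2 of GRCh38 from 214725646 to 214809683 on the minus strand with 11 exons, has no such overlap, and neither have BRIP1, BRCA2, DNA2, RAD51C, XRCC2, RAD51AP1, FANCM or UBE2T among the genes that rose.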

How the data were processed

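RNA-seq of 12 LNCaP libraries, 4 groups of 3, was used as deposited. The authors checked 75 bp paired-end reads with FastQC, trimmed them with Trimmomatic to at least 15 bp, ran kallisto 0.42.3 on GRCh38 transcripts and deposited estimated counts per gene from tximport, scaled by library size and transcript length. The 2 columns of each library were closer to each other than replicates were (median squared difference over the Poisson expectation 2.48 to 2.77, against 4.07 to 5.04 for 2 replicates of a group), so they were summed, counted as 1 replicate and rounded. Counts were tested in R 4.3.3 with edgeR 4.0.16 (TMM, filterByExpr with minimum counts of 10 and 15, 1 coefficient per group, quasi-likelihood test, Benjamini-Hochberg over 15419 genes), in code checked on simulated counts. The common biological coefficient of variation was 0.131. Genes were called at 1.5-fold and an adjusted p of 0.05, differences between responses at the adjusted p alone. The 35 genes, the other lists, the naming rule and the tests were chosen with earlier results of these data known. The rule named called genes, up to 5 per role and comparison with the smallest p, up to 2 others per role, and up to 2 per direction from other lists, and further genes were named after their values were seen. Alternatives used DESeq2 1.42.0, limma-voom 3.58.1, other filters and scaling, the replicate number as a block, over all libraries or (added after seeing the data) within each line, either column alone, the 6 libraries of a comparison, and each library left out in turn. Deviations of same-numbered libraries from their group means were correlated within each line (r over 0.1 for 3 of 3 pairs in both, 0.15 to 0.21 in shScramble and 0.14 to 0.28 in shTMEFF2). They were less so between lines at 1 DHT level (−0.0064 to 0.16, over 0.1 for 2 of 3 pairs), so by the rule used the numbers pair libraries within a line. Pairs of shScramble DHT- with shTMEFF2 DHT+ were at 0.14 to 0.16 (3 of 3 over 0.1), and those of shScramble DHT+ with shTMEFF2 DHT- at 0.045 to 0.13 (2 of 3). In total 15 of 18 same-numbered pairs were over 0.1, so these values do not settle whether the numbers also pair libraries across lines. 1 gene of a comparison list is not reported here. Gene positions and transcript lengths are from GENCODE 44 and promoters from RefSeq.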

Additional observations from a re-analysis of the deposited data

Results flagged for a closer look

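BARD1 and FANCD2 stood out because their responses to DHT differed between the lines by the test of the difference, which 2 of the 35 genes passed with no replicate block and 8 with one within each line. For BARD1 the difference was 0.92 on the log2 scale (SE 0.16, edgeR adjusted p = 0.0066), with all 3 DHT+ libraries below all 3 DHT- libraries in shScramble and overlapping groups in shTMEFF2. For FANCD2 the difference was 0.99 (SE 0.22, edgeR adjusted p = 0.023), with all 3 DHT+ libraries above all 3 DHT- libraries in shTMEFF2 and overlapping groups in shScramble. The level of FANCD2 in shTMEFF2 DHT- (42.5, 42.0 and 52.8 CPM) was also below that in shScramble DHT- (54.5, 65.7 and 66.4 CPM), a difference that was not past the adjusted p (0.23).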

How the results depend on the processing

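In the DHT response of shTMEFF2 the number of genes that rose was 22 to 25 over the other settings and 22 to 27 with a library left out, against 24. In shScramble it was 4 to 7 and 3 to 8, against 5. With DHT the number higher in shTMEFF2 was 2 and became 4 with library size only, with the first column and with the second column of each library, and 1 to 7 with a library left out. The number with a larger response in shTMEFF2 was 2 and became 5 with DESeq2 (BARD1, BRCA2, RAD51C, FANCD2 and FANCI), 4 with the replicate block (BARD1, EXO1, FANCD2 and FANCI), 8 with a replicate block within each line, which was chosen after seeing the data, and 1 to 4 with a library left out. BARD1 was called in all of these. FANCD2 was lost with the first column of each library alone (edgeR adjusted p = 0.13) and in 6 of the 12 runs with a library left out. Over the 35 genes, the 1 fall in shScramble, the 0 falls in shTMEFF2, the 0 calls without DHT, the 0 lower with DHT and the 0 smaller responses stayed as they were under every alternative run on them. The cause of these shifts was not tested.

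With the replicate block the number of all genes with a larger response in shTMEFF2 went from 254 to 432 (597 within each line), that with a smaller one from 507 to 688 (799 within each line), and the calls between the lines without DHT from 46 higher and 42 lower to 73 and 71. BRIP1 was called in shScramble with either block. Apart from the differences between responses, neither block changed another call among the 35 genes. Among the 65 single values past the adjusted p no sign turned. Of the 110 others 36 changed sign under some alternative, the largest at 0.29 on the log2 scale. Library size in place of TMM moved the split of all genes from 467 higher and 577 lower to 624 and 470 for the lines with DHT, and from 254 larger and 507 smaller to 370 and 398 for the difference between responses. At 19450866 to 22612046 counts per library, FANCB, with the fewest counts of the 35 genes, had an SE of 0.27 for the DHT response in shTMEFF2, against 0.09 for FANCA.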
